A study of Mus musculus with 34 samples.

Results

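The genes described here handle iron, copper and heme in mouse liver: Alas1, Alas2, Trf, Tfr2, Tfrc, Hamp, Slc40a1, Cp, Fth1 and Ftl1. They were chosen by name, as the entries whose symbol is on that list of 10. All 10 were found among the 14086 genes of a normalized count table covering 18 libraries, and 5 of them (Alas2, Hamp, Tfr2, Slc40a1 and Ftl1) among the 1659 genes of a z-score table.

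RNA was sequenced from samples labelled as liver cells and, per the labels' protocols, extracted from frozen liver tumours modelled by hydrodynamic injection, a fast large-volume injection that carries DNA into hepatocytes. No source label says whether a sample is a tumour, so the wild type and isoform alone samples need not be tumours. The normalized counts cover 5 samples labelled β-catenin skip 1 isoform induced, 2 labelled skip 2 isoform induced, 4 labelled ΔN90-β-catenin induced, 3 with the skip 1 isoform alone, 2 with the skip 2 isoform alone and 2 wild type samples. The z-scores tested cover 4 samples of subtype A, 9 of subtype B and 3 labelled sgActin and YAPS127A. The skip 1 and skip 2 forms are β-catenin isoforms that lack an exon, ΔN90 is β-catenin without its amino-terminal region, sgActin is a guide RNA against actin, and YAPS127A is an active form of the growth regulator YAP. For the 4 skip 2 samples one label field says skip 2 and another repeats skip 1, and the field that names skip 2 was used. The labels give no strain, sex, age or time, do not say what the isoforms were combined with in the induced samples, and do not say that libraries came from separate animals. P-values therefore measure only the spread between these samples. Skip 1 alone, skip 2 alone and wild type samples are called not induced where their 7 libraries are pooled.

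Liver takes up iron bound to transferrin, stores it in ferritin, and returns it to blood through ferroportin. The hormone hepcidin, made by hepatocytes, removes ferroportin from cell surfaces and so sets how much iron enters the circulation. Ceruloplasmin, a copper protein made by hepatocytes, oxidizes iron as it leaves cells, and a steady share of liver iron goes into heme for cytochrome P450 enzymes. When iron is scarce, the iron regulatory proteins Aco1 and Ireb2 bind a hairpin called the iron-responsive element: bound ahead of the coding sequence it blocks translation, and bound behind it the transcript is protected from decay.

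The hairpins are shown because they separate the genes whose RNA level can follow this switch from those whose translation does. The search took a C, 5 stem bases, the letters CAGTG and any base but G, then 5 bases that all pair with the stem, G:T pairs included. In transcript 201 of each gene (GENCODE on mm10), 5 of the 10 genes held such a site: Alas2, Fth1, Ftl1 and Slc40a1 in the 5′ untranslated region and Tfrc 4 times in the 3′ untranslated region. Of all genes with that region, 0.0919% of 18491 held a site in the 5′ and 0.367% of 19095 in the 3′ untranslated region. Capitals mark the bulged C and the 6 loop bases, and each site runs 5′ to 3′.
Alas2: tttggttCgtcctCAGTGCagggcaacagg
Fth1: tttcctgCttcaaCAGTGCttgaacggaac
Ftl1: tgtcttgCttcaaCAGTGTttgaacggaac
Slc40a1: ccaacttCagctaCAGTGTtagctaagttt
Tfrc, site 1: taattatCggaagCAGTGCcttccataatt
Tfrc, site 2: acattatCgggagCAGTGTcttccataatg
Tfrc, site 3: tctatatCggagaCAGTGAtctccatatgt
Tfrc, site 4: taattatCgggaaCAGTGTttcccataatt
The Fth1 site lies at chr19:9982731-9982760 on the plus strand, the Ftl1 site at chr7:45459779-45459808 and the Slc40a1 site at chr1:45925465-45925494, both on the minus strand. The Alas2 site crosses an intron, from base 150547457 to base 150552149 of chromosome X on the plus strand. The Tfrc sites lie between bases 32631218 and 32631738 of chromosome 16 on the plus strand. RNA counts show transcript levels only, so translation controlled through the 5′ sites was not measured.

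The proximal promoter of Hamp is shown beside that of its neighbour Hamp2, because these adjacent hepcidin genes differed in the ΔN90 induced samples. The sequences are RefSeq's on GRCm38.p6, both on the minus strand: Hamp at chr7:30944030-30944179 and Hamp2 at chr7:30924182-30924331. Capitals mark GGCGCC, the core of the element through which bone morphogenetic protein signals act on hepcidin, and TTCNNNGAA, a site of the STAT type, both searched on both strands.
Hamp: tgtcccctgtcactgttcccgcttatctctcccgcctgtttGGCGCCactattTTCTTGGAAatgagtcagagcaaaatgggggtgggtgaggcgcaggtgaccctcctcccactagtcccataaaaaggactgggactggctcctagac
Hamp2: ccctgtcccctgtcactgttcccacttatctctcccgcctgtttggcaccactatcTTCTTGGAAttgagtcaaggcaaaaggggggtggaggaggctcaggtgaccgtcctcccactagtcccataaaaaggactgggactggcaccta
In the 250 bases before the start site, Hamp held GGCGCC at -109 and TTCTTGGAA at -97, and Hamp2 held TTCTTGGAA at -94 and no GGCGCC. Among all 32851 promoters, 9.59% held GGCGCC and 7.02% held TTCNNNGAA. Of the 10 genes, 8 matched the promoter table. Tfrc also held GGCGCC, at -89, and Alas1 a TTCNNNGAA, at -171. A match in these letters is a description of the sequence, not evidence of a bound factor.

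Divided by transcript length, the 10 genes covered a wide range of levels. In skip 1 induced samples the mean normalized count per kilobase was 2868 for Trf, 869 for Ftl1, 390 for Fth1, 334 for Hamp, 153 for Cp, 119 for Alas1, 33.1 for Tfr2, 27.4 for Slc40a1, 23.4 for Alas2 and 1.58 for Tfrc. In wild type samples it was 2897 for Trf, 1270 for Ftl1, 584 for Fth1, 501 for Hamp, 182 for Alas1, 97.2 for Cp, 60.8 for Tfr2, 57.7 for Alas2, 29.0 for Slc40a1 and 2.90 for Tfrc. Transferrin was the most and the transferrin receptor Tfrc the least abundant of the 10 in both.

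Some facts of all 18 libraries bear on every value below. Estimated reads ran from 361772 to 933146 per library, and both skip 2 induced libraries were the deepest. The normalized counts of a library summed to 415528 to 524243 in the 11 induced and to 610688 to 694773 in the 7 not induced libraries. When each library was instead scaled to its total of estimated reads, the median log2 difference of all 6592 genes moved to 0.44 for skip 1 induced against alone, 0.53 for skip 2 induced against alone and 0.55 for ΔN90 induced against not induced. Without rescaling these medians were -0.02, -0.06 and 0.01. Summed levels of 12 hepatocyte markers were 19582 to 56538 in the induced and 62666 to 83465 in the not induced libraries. In bulk samples fewer cells of a type and less RNA per cell cannot be told apart. Ctnnb1, which encodes β-catenin, averaged 804 in skip 1 induced, 451 in skip 2 induced and 163 in ΔN90 induced samples, against 146 in not induced samples. Glul, a glutamine synthetase gene known as a β-catenin target in liver, averaged 1147 in skip 1 induced, 142 in skip 2 induced and 304 in ΔN90 induced samples, against 522 in not induced samples.

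**Figure D1:**
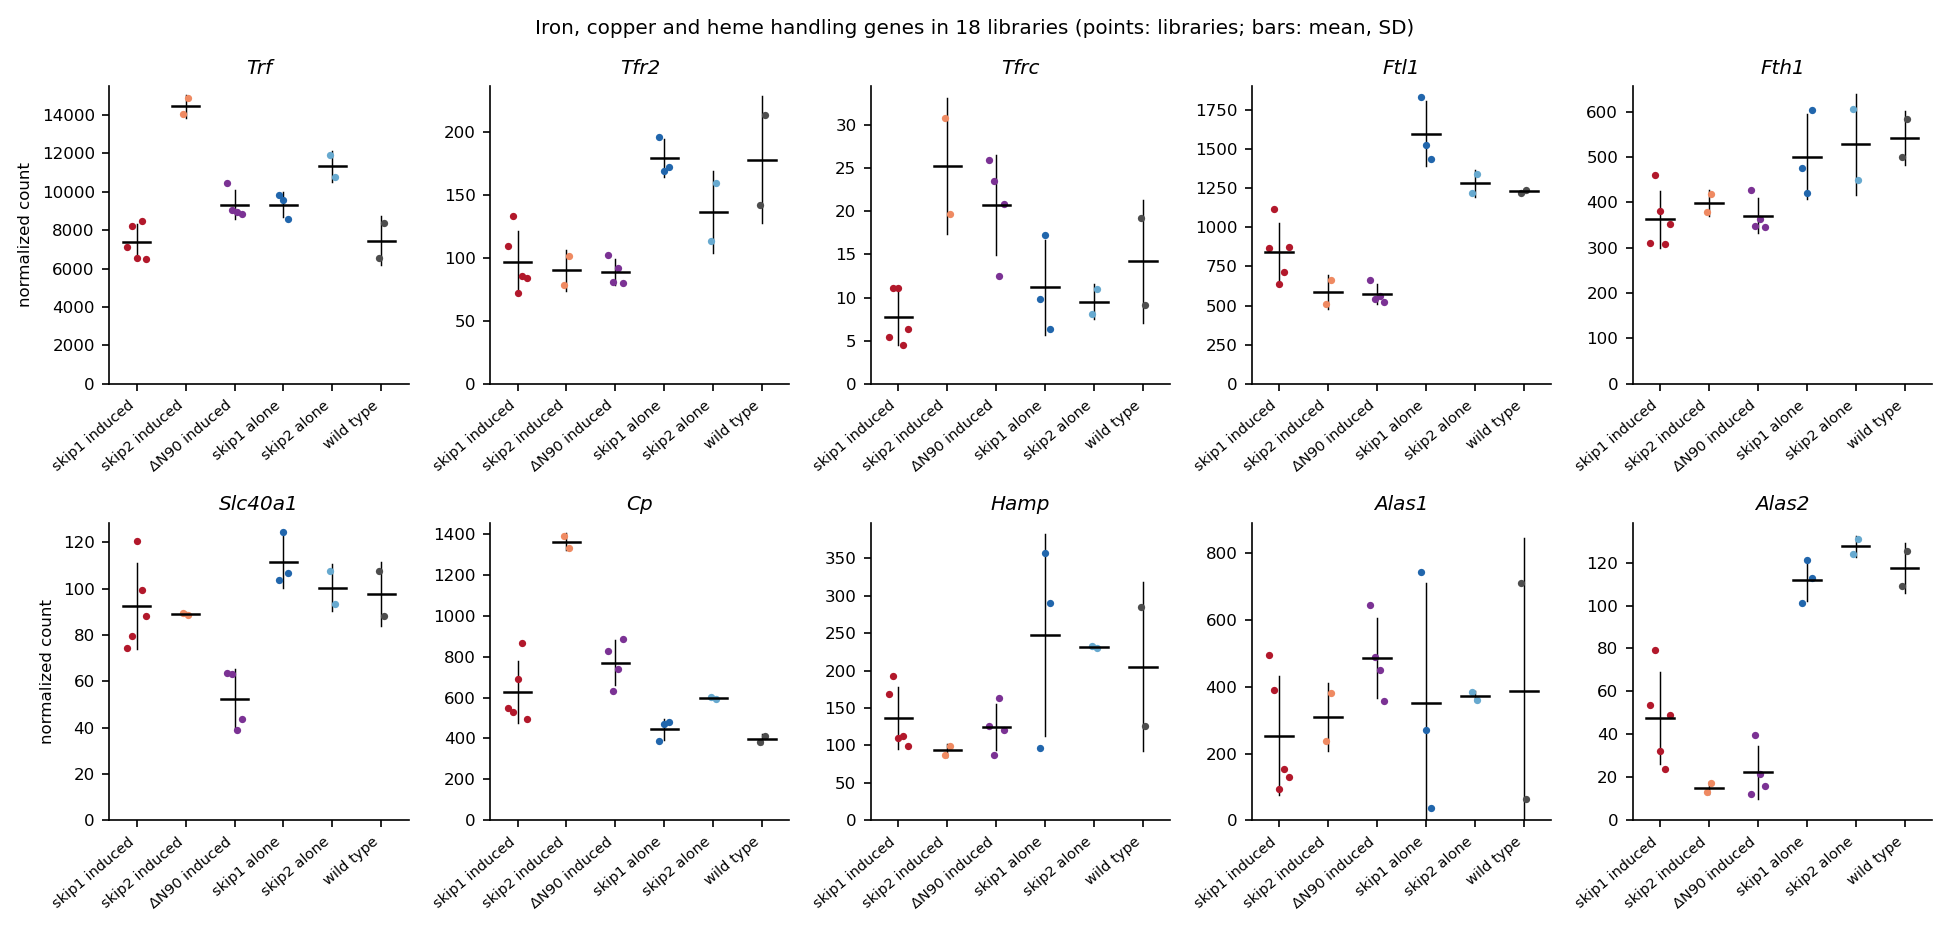
Normalized counts (vertical axis, from 0, its own scale for each gene) of the 10 genes in 18 libraries, with the 6 groups along the horizontal axis. Points are libraries, the wide bar is the group mean and the thin bar the SD. Alas2 and Ftl1 are low in all 3 induced groups, Trf and Cp are highest in skip 2 induced samples, and Alas1 spans 36.4 to 744 within skip 1 alone.

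Of the 10 genes, 8 changed in ΔN90 induced against not induced samples, where 37.6% of the 6592 genes tested passed the same threshold, an adjusted p under 0.05 by limma with Benjamini-Hochberg adjustment over all 6592 genes. Alas2, Ftl1, Slc40a1, Tfr2, Hamp and Fth1 fell, and Cp and Tfrc rose. In skip 1 induced against skip 1 alone samples 3 of the 10 changed, Alas2, Ftl1 and Tfr2, all lower, where 14.7% of genes passed. In skip 2 induced against skip 2 alone samples 3 of the 10 changed, where 14.9% passed: Alas2 and Ftl1 fell and Cp rose. The median log2 difference of the 10 was -0.64 for ΔN90 induced against not induced, -0.46 for skip 1 and -0.35 for skip 2, while that of all genes was 0.01, -0.02 and -0.06. The ΔN90 comparison uses all 7 not induced libraries, so it shares control samples with the other two.

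The calls between induced groups all involved skip 1 induced samples, the largest of these groups with 5 libraries. Against skip 2 induced samples 3 of the 10 changed, where 3.53% of genes passed: Alas2 was higher, and Cp and Tfrc were lower, in skip 1 induced samples. Against ΔN90 induced samples 3 of the 10 changed, where 4.63% of genes passed: Alas2 and Slc40a1 were higher, and Tfrc was lower, in skip 1 induced samples. Between skip 2 and ΔN90 induced samples none of the 10 passed, where 3.03% of genes did. That comparison sets 2 libraries against 4, with larger SE than skip 1 against ΔN90 induced samples. Slc40a1 differed by 0.79 ± 0.24 in the former and by 0.82 ± 0.19 in the latter, so calls alone do not rank the groups. Between skip 2 and ΔN90 induced samples 3 of the 10 had an unadjusted p under 0.05 (Trf, Slc40a1 and Cp), as did 852 of all 6592 genes. Voom on estimated reads called 0 of the 10, and over the alternatives 0 to 308 of all genes were called. Without skip 2 induced replicate 1, the skip 2 induced group is 1 library, assumed to vary like the other groups. The log2 differences in skip 1 against skip 2 induced samples were then 1.30 for Alas2, -1.12 for Cp and -1.32 for Tfrc. With both libraries they were 1.48, -1.15 and -1.64. With log2 depth as a covariate 0 of the 10 passed in that comparison. Calls over all genes moved there too, from 10 to 400 over the alternatives, against 233 in the main setting. The share of all genes with depth as a covariate is not given here, so this 0 has no matched background.

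**Figure D2:**
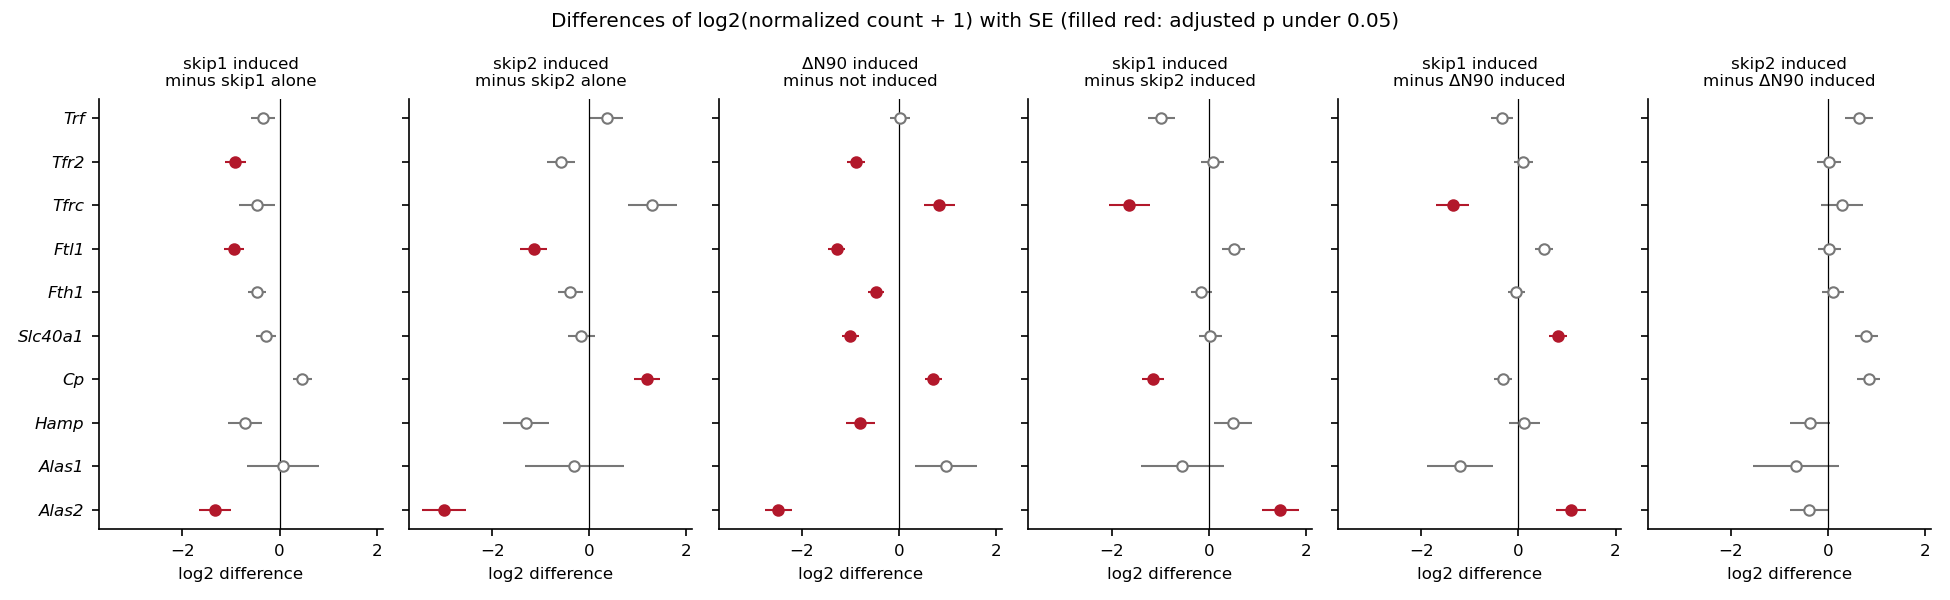
Differences in log2(normalized count + 1) with their SE (horizontal axis) for the 10 genes (vertical axis) in 6 comparisons. Filled points passed an adjusted p of 0.05 and open points did not. Alas2 is filled in 5 of the 6 panels, and the skip 2 against ΔN90 panel has no filled point.

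Alas1 and Alas2 encode the 2 forms of 5-aminolevulinate synthase, which makes the first and rate-limiting step of heme synthesis. Alas1 is the form used in liver and most tissues, and Alas2 the form of developing red cells, whose messenger carries the iron-responsive element shown above. Alas2 (chromosome X, 150547375 to 150570638) had normalized counts of 53.7, 79.1, 32.3, 23.9 and 48.8 in skip 1 induced, 13.3 and 17.2 in skip 2 induced and 12.02, 39.6, 21.7 and 15.8 in ΔN90 induced libraries. It had 101, 121 and 113 with skip 1 alone, 124 and 131 with skip 2 alone and 109 and 126 in wild type libraries. Every induced library lay below every library that was not induced, and the 3 groups without induction overlapped.

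The mean of Alas2 in skip 1 induced samples was 0.425 times that in skip 1 alone samples, which is -1.33 ± 0.33 on the log2 scale (SE throughout, limma adjusted p = 0.00980). In skip 2 induced samples it was 0.119 times that in skip 2 alone samples (-3.00 ± 0.45, limma adjusted p = 0.000129), and in ΔN90 induced samples 0.189 times that in not induced samples (-2.48 ± 0.28, limma adjusted p = 6.88e-07). Alas2 kept its call in these 3 comparisons under all alternatives tried, scaling to the total of estimated reads included, where the differences were -0.86, -2.46 and -2.02. The difference between the skip 2 and the skip 1 change was -1.67 ± 0.56 (unadjusted p = 0.00727), which did not pass adjustment over all genes (limma adjusted p = 0.276). Between induced groups Alas2 was 1.48 ± 0.38 higher on the log2 scale in skip 1 than in skip 2 induced samples (limma adjusted p = 0.0332) and 1.08 ± 0.30 higher than in ΔN90 induced samples (limma adjusted p = 0.0434), where libraries overlapped. Those 2 calls were lost in 7 of 18 and 8 of 20 alternatives.

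Red cell transcripts were measured beside Alas2. The summed normalized count of 5 globin genes was 188, 352, 135, 62.3 and 131 in skip 1 induced, 38.2 and 146 in skip 2 induced and 59.8, 218, 176 and 131 in ΔN90 induced libraries. It was 225, 227 and 141 with skip 1 alone, 297 and 173 with skip 2 alone and 200 and 120 in wild type libraries. The induced and not induced libraries overlapped in globin level, unlike in Alas2. Within each induced group, the library with the most Alas2 was also the one with the most globin, and the library with the least Alas2 had the least globin. In the skip 2 alone and wild type groups, of 2 libraries each, it was the other way round, the library with more Alas2 having less globin. In the skip 1 alone group the library with the most Alas2 (121) also had the most globin (227). The one with the least Alas2 (101, globin 225) did not have the least globin. The 12 erythroid markers in the table summed to 137 to 486 in induced and 230 to 434 in not induced libraries. The 6 of them that could be tested had a median log2 difference of -0.55 in ΔN90 induced against not induced samples. Against the isoform alone their median was -0.38 for skip 1 and -0.36 for skip 2 induced samples. Hba-a2, Hbb-bs, Klf1 and Car2 were each at 0 in every library of at least 1 group, and Hba-a2 and Hbb-bs are near-identical copies of other globin genes. The part of red cells in the Alas2 values was not tested.

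**Figure D3:**
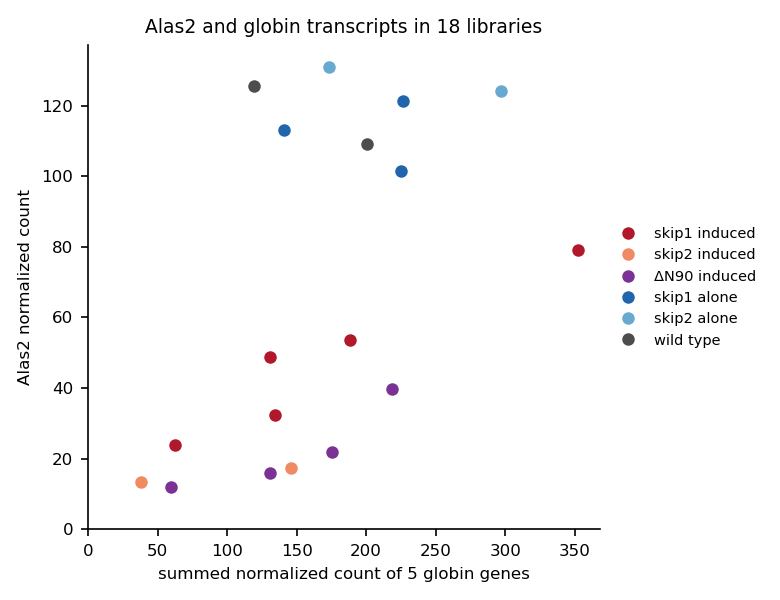
Alas2 normalized count (vertical axis) against the summed normalized count of 5 globin genes (horizontal axis) in 18 libraries, coloured by group. The 7 not induced libraries lie at 101 to 131 for Alas2 and the 11 induced libraries at 12.02 to 79.1, while both cover much of the same globin range.

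Alas1 (chromosome 9, 106233927 to 106247856) varied more within groups than between them. Its normalized count was 494, 391, 94.3, 153 and 131 in skip 1 induced, 236 and 381 in skip 2 induced and 645, 488, 450 and 358 in ΔN90 induced libraries. It was 744, 272 and 36.4 with skip 1 alone, 384 and 362 with skip 2 alone and 712 and 62.7 in wild type libraries. The ranges of neighbouring groups overlapped along the whole order from the highest mean, in ΔN90 induced, to the lowest, in skip 1 induced samples. No comparison passed for Alas1, and the largest log2 differences were -1.20 ± 0.68 (skip 1 against ΔN90 induced, limma adjusted p = 0.410) and 0.98 ± 0.64 (ΔN90 induced against not induced, limma adjusted p = 0.240). The ΔN90 difference passed when libraries were quantile normalized or scaled to total reads, settings in which the median of all genes was 0.02 and 0.55. The genes with the most similar log2 profile over the 18 libraries were Por, which encodes the reductase that feeds cytochrome P450 enzymes (r = 0.86), the transcription factor gene Tef (r = 0.82) and Sphk2, a sphingosine kinase gene (r = 0.82).

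Trf encodes transferrin, the plasma carrier of iron that hepatocytes secrete. Its normalized count (chromosome 9, 103208795 to 103230444) was 7138, 8201, 6553, 8495 and 6478 in skip 1 induced, 14039 and 14890 in skip 2 induced and 10449, 9070, 8924 and 8828 in ΔN90 induced libraries. It was 9807, 9576 and 8608 with skip 1 alone, 11899 and 10744 with skip 2 alone and 6545 and 8351 in wild type libraries. Both skip 2 induced libraries lay above all others. Skip 1 and skip 2 induced libraries did not overlap, yet the log2 difference of -0.98 ± 0.28 missed the threshold (limma adjusted p = 0.0529). It passed in 7 of 18 alternatives, but over the 18 it ran from -1.06 to -0.10, so its size depended on the processing. Skip 2 induced libraries also lay above skip 2 alone libraries, with a log2 difference of 0.35 ± 0.33 that did not pass (limma adjusted p = 0.532). In ΔN90 induced against not induced samples the difference was 0.01 ± 0.21 (limma adjusted p = 0.969). It passed when libraries were scaled to total reads, at 0.56 (limma adjusted p = 0.00118) with a median of 0.55 for all genes, and when they were quantile normalized, at 0.86 (limma adjusted p = 0.00339) with a median of 0.02 for all genes. Its nearest profiles were those of C1s1, a complement protease gene (r = 0.93), Ahsg, which encodes the secreted protein fetuin-A (r = 0.84), and Sqle, a cholesterol synthesis gene (r = 0.80).

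Tfrc encodes transferrin receptor 1, which imports iron-loaded transferrin and whose messenger carries the 4 hairpins shown above. Its level was low everywhere (chromosome 16, 32608920 to 32632794): 5.38, 11.1, 11.1, 4.51 and 6.39 normalized counts in skip 1 induced, 30.8 and 19.7 in skip 2 induced and 26.0, 23.5, 12.5 and 20.9 in ΔN90 induced libraries. It was 9.87, 17.3 and 6.39 with skip 1 alone, 8.09 and 10.99 with skip 2 alone and 19.3 and 9.14 in wild type libraries. All 5 skip 1 induced libraries lay below all skip 2 and all ΔN90 induced libraries. On average 8 estimated reads stood behind a skip 1 induced value, 50 behind a skip 2 induced and 21.8 behind a ΔN90 induced value, so counting error is large in the first group.

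Tfrc was lower in skip 1 than in skip 2 induced samples by a log2 difference of -1.64 ± 0.42 (limma adjusted p = 0.0342) and than in ΔN90 induced samples by -1.35 ± 0.34 (limma adjusted p = 0.0204). The first call was lost in 5 of 17 and the second in 5 of 19 alternatives. Against not induced samples Tfrc rose in ΔN90 induced samples by 0.83 ± 0.32 (limma adjusted p = 0.0446), where libraries overlapped and 13 of 21 alternatives lost the call. Against skip 2 alone, both skip 2 induced libraries were higher, with a difference of 1.30 ± 0.50 that did not pass (limma adjusted p = 0.0907). The difference between the skip 2 and the skip 1 change was 1.76 ± 0.62 (unadjusted p = 0.0104, limma adjusted p = 0.314). Tfrc is also known to be high in dividing cells. The 8 proliferation markers summed to 114 to 210 in skip 1 induced, 119 to 167 in skip 2 induced and 88.9 to 193 in ΔN90 induced libraries, against 39.1 to 62.6 in not induced libraries. The part of dividing cells in the Tfrc values was not tested.

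Tfr2 encodes transferrin receptor 2, which in hepatocytes senses iron-loaded transferrin and promotes hepcidin expression. Its normalized count (chromosome 5, 137569851 to 137587481) was 110, 133, 71.7, 85.4 and 84.3 in skip 1 induced, 78.5 and 102 in skip 2 induced and 102, 80.8, 91.7 and 79.7 in ΔN90 induced libraries. It was 196, 169 and 172 with skip 1 alone, 114 and 160 with skip 2 alone and 142 and 214 in wild type libraries. The 3 induced groups overlapped, with means of 96.8, 90.1 and 88.5. Tfr2 fell in skip 1 induced against skip 1 alone samples, to 0.541 times the mean (-0.91 ± 0.21, limma adjusted p = 0.00628), and in ΔN90 induced against not induced samples, to 0.531 times (-0.89 ± 0.18, limma adjusted p = 0.000678). In skip 2 induced against skip 2 alone samples the difference was -0.59 ± 0.29 and did not pass (limma adjusted p = 0.192). Scaled to total reads, the 2 called differences became -0.44 and -0.35 and lost their calls (limma adjusted p = 0.0899 and 0.0747), in a setting where the median of all genes stood at 0.44 and 0.55. The nearest profile was that of Sardh, a mitochondrial enzyme of choline breakdown (r = 0.96).

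Hamp encodes hepcidin. Its normalized count (chromosome 7, 30942368 to 30944032) was 169, 193, 110, 113 and 99.0 in skip 1 induced, 87.3 and 99.5 in skip 2 induced and 126, 87.7, 163 and 121 in ΔN90 induced libraries. It was 97.0, 357 and 291 with skip 1 alone, 234 and 231 with skip 2 alone and 285 and 125 in wild type libraries. From the not induced groups, 1 skip 1 alone and 1 wild type library lay within the range of the induced libraries. Hamp fell in ΔN90 induced against not induced samples by 0.80 ± 0.30 on the log2 scale (limma adjusted p = 0.0389), a call lost in 14 of 22 alternatives. Against their own isoform alone the differences were -0.71 ± 0.35 for skip 1 (limma adjusted p = 0.186) and -1.31 ± 0.47 for skip 2 induced samples (limma adjusted p = 0.0679). No pair of induced groups differed by more than 0.50 in log2, and none passed.

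Hamp2 (chromosome 7, 30922389 to 30924181), the hepcidin paralog beside Hamp in the mouse genome, is not one of the 10 genes but belongs to the list of hepcidin control genes below. Its normalized count was 2.15, 12.03, 0.929, 0 and 1.07 in skip 1 induced, 2.30 and 3.57 in skip 2 induced and 35.4, 31.6, 46.4 and 46.7 in ΔN90 induced libraries. It was 0, 5.75 and 3.20 with skip 1 alone, 2.31 and 1.37 with skip 2 alone and 3.40 and 0.831 in wild type libraries. No other library reached the lowest ΔN90 induced value. The gene passed the filter on low values only through the ΔN90 induced libraries, so it could only be tested because it was high there, and its values are given as a description with no test. The ΔN90 induced mean was 16.6 times that in not induced samples.

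Of the normalized counts of Hamp and Hamp2 together, Hamp2 made up 0% to 5.86% in skip 1 induced, 2.56% to 3.47% in skip 2 induced and 21.95%, 26.5%, 22.2% and 27.8% in ΔN90 induced libraries. Its share was 0% to 1.59% in not induced libraries. The pair share much of their sequence, and how the counting split reads that match both is not given in the sources used here. The 14 acute phase genes summed to 4041 to 7543 in induced libraries and to 5676 to 9088 in skip 1 alone and wild type libraries, and both skip 2 alone libraries were highest, at 14826 and 19384. Hepcidin is known to rise in inflammation, and the part of that in the Hamp values was not tested.

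**Figure D4:**
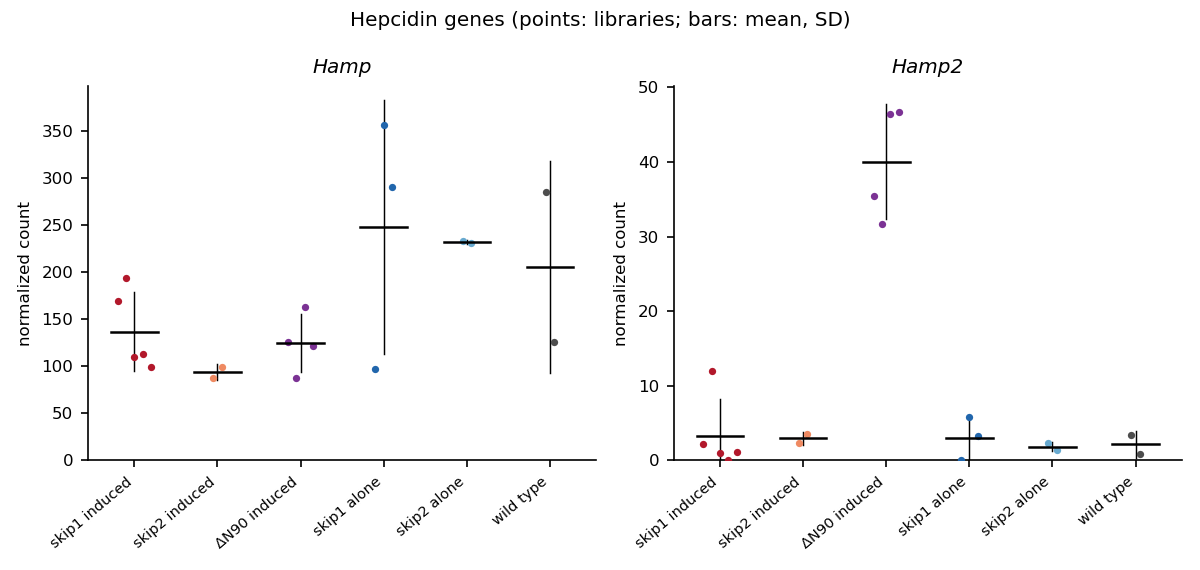
Normalized counts (vertical axes, from 0) of Hamp, left, and Hamp2, right, in 18 libraries by group. Points are libraries, wide bars means and thin bars SD. For Hamp2 the 4 ΔN90 induced libraries stand at 31.6 to 46.7 and the other 14 at 0 to 12.03.

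Slc40a1 encodes ferroportin, the only known exporter of iron from cells and the target of hepcidin. Its normalized count (chromosome 1, 45908068 to 45925582) was 74.2, 79.5, 121, 99.3 and 88.4 in skip 1 induced, 89.6 and 88.8 in skip 2 induced and 63.7, 63.3, 38.9 and 43.7 in ΔN90 induced libraries. It was 104, 124 and 107 with skip 1 alone, 108 and 93.4 with skip 2 alone and 108 and 88.1 in wild type libraries. The 4 ΔN90 induced libraries lay below all 14 others, and skip 1 and skip 2 induced libraries overlapped the not induced ones. Slc40a1 fell in ΔN90 induced samples to 0.502 times the mean of not induced samples (-1.01 ± 0.18, limma adjusted p = 0.000125). It was higher in skip 1 than in ΔN90 induced samples by 0.82 ± 0.19 (limma adjusted p = 0.0102). In skip 2 against ΔN90 induced samples the difference of 0.79 ± 0.24 did not pass (limma adjusted p = 0.0878), though the libraries did not overlap. Against the isoform alone, differences were -0.28 ± 0.20 for skip 1 and -0.17 ± 0.28 for skip 2 induced samples and did not pass.

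Ferroportin is abundant in Kupffer cells, the macrophages of liver, as well as in hepatocytes. Markers of both, and of sinusoidal endothelium, are therefore given beside it. The hepatocyte markers summed to 22126 to 30258 in ΔN90 induced and 62666 to 83465 in not induced libraries. The 12 Kupffer cell and macrophage markers summed to 428 to 797 in skip 1 induced, 535 to 603 in skip 2 induced and 404 to 624 in ΔN90 induced libraries, against 292 to 436 in not induced libraries. Single markers did not move as 1 group. Csf1r, C1qa, C1qb, C1qc and Lyz2, which macrophages express widely, rose in ΔN90 induced against not induced samples, while Clec4f, a lectin gene that marks Kupffer cells, fell to 44.0 in ΔN90 induced, against 76.4 in not induced samples (-0.82 ± 0.23, limma adjusted p = 0.00835). Clec4f, Vsig4 and Cd5l were each higher in skip 1 than in ΔN90 induced samples, by 1.03, 1.07 and 1.03 on the log2 scale. The other tested markers of that list did not pass there, with differences from -0.05 (Csf1r) to 0.38 (Cd163). The median of the list was 0.17, against -0.02 for all genes. The 10 sinusoidal endothelial markers summed to 354 to 407 in skip 1, 326 to 345 in skip 2 and 204 to 349 in ΔN90 induced libraries. In not induced libraries they summed to 323 to 374. Of the 9 tested, 4 were called lower and 0 higher in ΔN90 induced against not induced samples (median -0.50), where 37.6% of all genes passed. In skip 1 against ΔN90 induced samples 4 were called higher and 0 lower (median 0.57), where 4.63% of all genes passed. None of the 12 or the 10 was at 0 throughout a group. The part of these cells in the Slc40a1 values was not tested. Without ΔN90 induced replicate 3 the difference between skip 1 and ΔN90 induced samples no longer passed (limma adjusted p = 0.0654). Scaled to total reads, the difference from not induced samples was -0.46 (limma adjusted p = 0.0507), against a median of 0.55 for all genes. The nearest profiles were those of Mup20, a major urinary protein gene (r = 0.89), and Akr1c6, an aldo-keto reductase gene (r = 0.86).

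Cp encodes ceruloplasmin, which carries most of the copper in plasma and oxidizes iron for loading onto transferrin. Its normalized count (chromosome 3, 19957069 to 20009145) was 550, 530, 690, 865 and 496 in skip 1 induced, 1392 and 1333 in skip 2 induced and 827, 632, 740 and 885 in ΔN90 induced libraries. It was 387, 472 and 479 with skip 1 alone, 602 and 594 with skip 2 alone and 382 and 414 in wild type libraries. Both skip 2 induced libraries lay above all others, and in all 3 induced groups every library lay above its own comparison group. Cp rose in skip 2 induced samples to 2.28 times the mean of skip 2 alone samples (1.19 ± 0.27, limma adjusted p = 0.00511) and in ΔN90 induced samples to 1.62 times that of not induced samples (0.71 ± 0.17, limma adjusted p = 0.00263). The skip 1 difference of 0.46 ± 0.20 did not pass (limma adjusted p = 0.127). It did pass when libraries were quantile normalized or scaled to total reads, settings in which the median of all genes was -0.01 and 0.44.

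Between induced groups, Cp was lower in skip 1 than in skip 2 induced samples by -1.15 ± 0.23 on the log2 scale (limma adjusted p = 0.00764), and 0.83 ± 0.24 higher in skip 2 than in ΔN90 induced samples without passing (limma adjusted p = 0.0597). The skip 1 against skip 2 call was lost without skip 2 induced replicate 1 and with depth as a covariate, and depth as a covariate also ended the call against skip 2 alone samples (0.96 ± 0.34, limma adjusted p = 0.0678). The 2 skip 2 induced libraries were the deepest, so depth and that group cannot be told apart. The ΔN90 call held in all 22 alternatives. Ceruloplasmin is an acute phase protein, and the acute phase sums given above were 6076 and 7543 in the skip 2 induced libraries, against 14826 and 19384 in the skip 2 alone libraries. The part of that response in the Cp values was not tested. The nearest profiles were those of Tpr, a nuclear pore gene (r = 0.88), Ap2b1, an adaptor gene of vesicle transport (r = 0.87), and Ly6e (r = 0.87).

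Ftl1 and Fth1 encode the light and heavy chains of ferritin, whose shell stores iron, the heavy chain holding the ferroxidase activity. Ftl1 (chromosome 7, 45457944 to 45459884) had normalized counts of 868, 1116, 640, 712 and 871 in skip 1 induced, 507 and 661 in skip 2 induced and 665, 542, 558 and 524 in ΔN90 induced libraries. It had 1835, 1523 and 1439 with skip 1 alone, 1218 and 1343 with skip 2 alone and 1221 and 1238 in wild type libraries. Every induced library lay below every library that was not induced. Ftl1 fell to 0.5262 times the mean of skip 1 alone in skip 1 induced samples (-0.94 ± 0.20, limma adjusted p = 0.00323). It fell to 0.456 times that of skip 2 alone in skip 2 induced samples (-1.14 ± 0.27, limma adjusted p = 0.00708) and to 0.408 times that of not induced samples in ΔN90 induced samples (-1.28 ± 0.17, limma adjusted p = 5.71e-06). The ΔN90 call held in all 22 alternatives. Quantile normalization reduced the skip 1 and skip 2 differences to -0.15 for each and ended both calls. The skip 2 call was lost in 4 of 14 alternatives, the others being voom on estimated reads and the fits without skip 2 induced replicate 1 or without skip 2 alone replicate 2.

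Fth1 (chromosome 19, 9982646 to 9985098) moved less. Its normalized count was 308 to 461 with a median of 353 in skip 1 induced, 378 and 420 in skip 2 induced and 427, 348, 364 and 346 in ΔN90 induced libraries. It was 477, 421 and 605 with skip 1 alone, 607 and 449 with skip 2 alone and 500 and 585 in wild type libraries. Induced and not induced libraries overlapped slightly, near 421 to 461. Fth1 fell in ΔN90 induced against not induced samples by 0.48 ± 0.16 on the log2 scale (limma adjusted p = 0.0259). Under quantile normalization the difference turned to 0.14, with a median of 0.02 for all genes. Scaled to total reads it turned to 0.06, with a median of 0.55 for all genes, so Fth1 still lay below that median. Neither of these passed. The differences of -0.47 ± 0.19 for skip 1 and -0.39 ± 0.26 for skip 2 induced samples did not pass (limma adjusted p = 0.106 and 0.348).

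The ratio of Ftl1 to Fth1 normalized counts, which other scalings by a factor per library leave as it is, was 1.68 to 2.80 in skip 1 induced, 1.34 and 1.57 in skip 2 induced and 1.51 to 1.56 in ΔN90 induced libraries. It was 2.38 to 3.85 with skip 1 alone, 2.01 and 2.99 with skip 2 alone and 2.12 and 2.44 in wild type libraries. All skip 2 and ΔN90 induced libraries lay below all not induced libraries, and skip 1 induced libraries lay above those of both these groups and overlapped the not induced ones. Ferritin genes have processed pseudogene copies in the mouse genome, and how reads matching them were assigned is not given in the sources used here. The nearest profiles to Ftl1 were those of Ces2a, a carboxylesterase gene (r = 0.96), Atp5g1, an ATP synthase gene (r = 0.95), and Gstp1, a glutathione transferase gene (r = 0.95). Ces2a was also close to Alas2 (r = 0.95), after Prepl (r = 0.95) and the major urinary protein gene Mup1 (r = 0.95). All these correlations are descriptions over 18 libraries that share 1 large split, induced against not induced.

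In the samples with an isoform alone, no call was made for any of the 10 genes against wild type samples. For skip 1 alone 0 of 10 passed, where 0% of 6592 genes did. There 0 of the 10 had an unadjusted p under 0.05, as 272 of all 6592 genes had. For skip 2 alone 0 of 10 passed, where 0.0152% of genes did. There 1, Cp, had an unadjusted p under 0.05 (0.59 ± 0.27, limma adjusted p = 0.967), as 330 of all 6592 genes had. Voom on estimated reads called 0 of the 10 in both. Over the alternatives 0 to 1 of all genes were called for skip 1 alone and 0 to 4 for skip 2 alone. With 2 wild type libraries these comparisons can miss differences of moderate size. The largest SE among the 10 was that of Alas1, 0.93 on the log2 scale for skip 1 and 1.02 for skip 2 alone.

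Genes that act with these 10 were listed by role, 89 in all, of which 84 were in the table and 63 could be tested. In ΔN90 induced against not induced samples 6 of the 63 were called higher and 18 lower, 38.1% in all, near the 37.6% of all genes called there. Their median log2 difference was -0.21 against 0.01 for all genes. In skip 1 induced against skip 1 alone samples 1 was called higher and 4 lower, 7.94% against 14.7% of all genes. In skip 2 induced against skip 2 alone samples 2 were called higher and 8 lower, 15.9% against 14.9% of all genes. Of the called genes, Hamp2, Steap2 and Mt1 would not have reached the mean of 10 without the ΔN90 induced libraries, Steap2 also not without the skip 2 induced libraries, and Glrx5 not without the not induced ones. Each was high in the libraries named and was tested only through them, which favours a difference there, so these 4 are described without a test. The counts of called list genes given here and below include them. All 10 main genes reach that mean whichever group is left out. Between skip 1 and skip 2 induced samples the median log2 difference of the 63 was -0.01, against -0.03 for all genes.

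Of 10 tested genes of heme synthesis 3 fell and 0 rose in ΔN90 induced against not induced samples, where 37.6% of all genes passed, among them Cpox (means 21.4 and 45.2, log2 difference -1.04 ± 0.20) and Abcb10 (19.7 and 29.3). Cpox encodes coproporphyrinogen oxidase, a late enzyme of the pathway. Of 7 tested genes of heme breakdown and transport 3 fell there, 42.9% of the list: Gstp1, Pgrmc1, a heme-binding membrane protein gene, and Hpx, whose product hemopexin clears free heme from plasma. Hpx is also an acute phase gene and averaged 4161 in skip 2 alone samples, which are among the not induced samples. Gstp1 averaged 876 in skip 1 induced, 590 in skip 2 induced and 462 in ΔN90 induced samples, against 3356 in not induced samples, and fell in all 3 comparisons.

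Of 10 tested genes of iron storage, mitochondrial iron and iron-sulfur cluster assembly, beyond the ferritins, 5 were called lower and 0 higher in ΔN90 induced against not induced samples, where 37.6% of all genes passed. The 5 included Iscu, Nfs1 and Cisd1, and also Glrx5, which passed the filter only through the not induced libraries. Nfs1, the cysteine desulfurase that supplies the sulfur, averaged 12.5 in ΔN90 induced against 28.4 in not induced samples (-1.16 ± 0.28, limma adjusted p = 0.00262). The list median was -0.56. Of 17 tested genes of iron sensing and hepcidin control 3 were called there, 17.6% of the list. Hamp2, which passed the filter only through the ΔN90 induced libraries, is described above without a test. Aco1 and Ireb2, which encode the iron regulatory proteins that bind the hairpins, were lower in ΔN90 induced samples. Ireb2 averaged 16.8 in ΔN90 induced against 36.4 in not induced samples and Aco1 136 against 212. Aco1 was also lower in skip 1 induced than in skip 1 alone samples, at 126 against 207 (-0.75 ± 0.23, limma adjusted p = 0.0313). It was the 1 gene of the 17 called there, 5.88% against 14.7% of all genes. In skip 2 induced against skip 2 alone samples 0 of the 17 were called, where 14.9% of all genes passed. Tmprss6, which encodes a protease that restrains hepcidin, averaged 164 in ΔN90 induced and 247 in not induced samples and did not pass (-0.54 ± 0.21, limma adjusted p = 0.0516).

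Of 6 tested genes of iron uptake, 2 were called in both skip 2 and ΔN90 induced samples against their comparison groups. That is 33.3% of the list, against 14.9% and 37.6% of all genes. Slc11a2 was lower in both. Steap2 was higher in both, but it would not have been tested without the skip 2 or without the ΔN90 induced libraries. Its values are therefore given as a description. Steap2, a metalloreductase gene, averaged 24.8 in skip 2 induced, against 3.23 in skip 2 alone samples, and 19.6 in ΔN90 induced, against 3.74 in not induced samples. Slc11a2, the iron transporter DMT1, fell to 24.1 in ΔN90 induced, against 38.7 in not induced samples. Lcn2, which binds iron-carrying siderophores and is also an acute phase gene, was the only tested gene of the list of iron export, where it rose in skip 1 induced samples (26.9, against 5.92 in skip 1 alone). It averaged 48.9 in ΔN90 induced and 23.9 in not induced samples, where it also passed, although the skip 2 alone libraries averaged 71.8.

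Among 12 tested copper genes 3 were called higher and 4 lower in ΔN90 induced against not induced samples, 58.3% against 37.6% of all genes. The 3 include Mt1, which passed the filter only through the ΔN90 induced libraries. Slc31a1, the copper importer Ctr1, averaged 56.7 in skip 1 induced, 49.3 in skip 2 induced and 49.4 in ΔN90 induced samples, against 92.9 in not induced samples, and fell in all 3 comparisons. Atp7b, the copper pump that loads ceruloplasmin in hepatocytes, rose to 45.1 in skip 2 induced, against 20.6 in skip 2 alone samples (1.09 ± 0.33, limma adjusted p = 0.0304). It rose to 40.5 in ΔN90 induced, against 24.1 in not induced samples (0.77 ± 0.21, limma adjusted p = 0.00633), the same 2 comparisons in which Cp rose. Mt1, a metal-binding metallothionein gene, averaged 21.4 in ΔN90 induced and 8.24 in not induced samples, and the other copper genes that fell there were Sod1, Atox1 and Xiap.

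In the z-score table, 5 of the 10 genes were present, and each was highest in the samples labelled sgActin and YAPS127A. A z-score counts SDs of a gene over the libraries scaled together, so differences give no fold, and the 16 libraries of these 3 groups were not compared with the other 18, which were scaled apart. In subtype A against subtype B all 5 genes were higher, where 61.1% of the 1659 genes passed, 668 of them higher and 346 lower. Their median difference was 0.52, against 0.19 for all genes. That second median takes in 692 genes called higher in subtype A than in sgActin and YAPS127A. These 5 were lower there, so it is not a matched background. Both subtypes were lower than sgActin and YAPS127A in all 5, where 97.3% of genes passed for subtype A and 99.6% for subtype B, so these counts match the background of a table of selected genes.

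Tfr2 had z-scores of 0.06, -0.15, -0.09 and -0.14 in subtype A, and -0.90 at the lowest, -0.57 at the median and -0.39 at the highest in the 9 subtype B libraries. The subtypes did not overlap, and the difference was 0.52 ± 0.11 (limma adjusted p = 0.00206). Hamp had 0.46, -0.25, 0.01 and -0.38 in subtype A, and -0.91, -0.58 and -0.39 at the lowest, median and highest in subtype B. Its subtypes lay close without overlap (0.58 ± 0.20, limma adjusted p = 0.0218), and without subtype A replicate 1 the call was lost (limma adjusted p = 0.109). Slc40a1 had 0.26, -0.08, 0.11 and 0.20 in subtype A, and -1.20, -0.57 and 0.11 in subtype B, with 1 subtype B library within the range of subtype A. Its difference was 0.70 ± 0.19 (limma adjusted p = 0.00718).

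Ftl1 had -0.06, -0.29, -0.20 and -0.13 in subtype A, and -0.68, -0.56 and -0.28 at the lowest, median and highest in subtype B (0.38 ± 0.08, limma adjusted p = 0.00211). Alas2 had 0.02, -0.37, -0.38 and -0.06 in subtype A, and -0.62, -0.57 and -0.31 in subtype B (0.34 ± 0.11, limma adjusted p = 0.0158). In both genes 1 subtype B library reached into the range of subtype A. Without subtype A replicate 1 or 4 the Alas2 call was lost. In the samples labelled sgActin and YAPS127A, z-scores ran from 1.69 to 2.28 for Alas2, 1.87 to 2.22 for Ftl1, 1.70 to 2.29 for Tfr2, 1.66 to 2.11 for Slc40a1 and 1.12 to 2.32 for Hamp. The lowest of these exceeds every subtype A and subtype B value of the 5 genes.

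**Figure D5:**
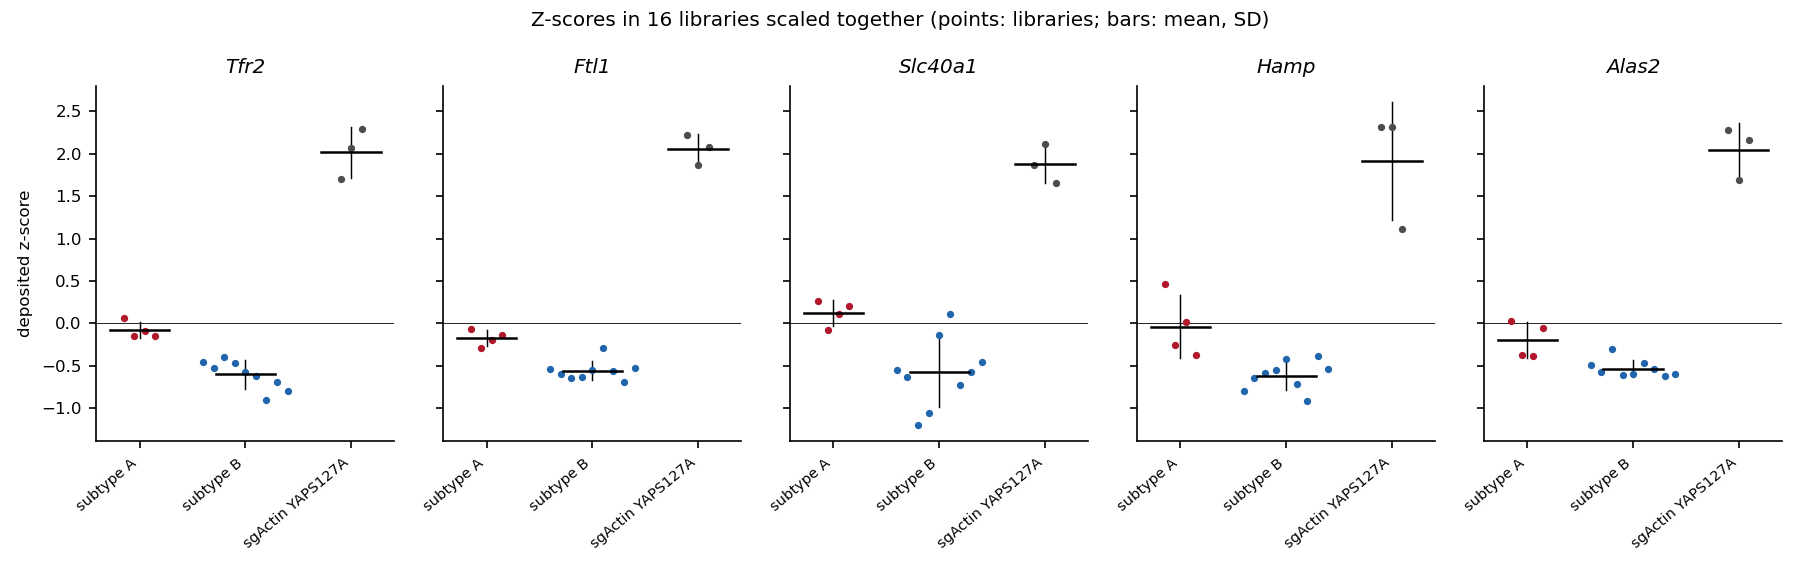
Deposited z-scores (vertical axis, in SDs of each gene over the libraries scaled together) of 5 genes in subtype A, subtype B and the samples labelled sgActin and YAPS127A. Points are libraries, wide bars means and thin bars SD. Every gene averages higher in subtype A than in subtype B, by 0.34 to 0.70, and highest in sgActin and YAPS127A.

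Of the 89 listed genes 17 were in the z-score table. In subtype A against subtype B 13 of the 17 were called higher and 0 lower, 76.5% in all. Of all 1659 genes 61.1% were called, 668 higher and 346 lower. The median difference was 0.37, against 0.19 for all genes. Of the 17, 16 were called lower in subtype A than in sgActin and YAPS127A, so all genes are not a matched background here either. The 13 included Cpox (0.56 ± 0.12) of heme synthesis, Atox1 (0.60 ± 0.14), a copper chaperone gene, Tmprss6 (0.44 ± 0.08) and Nfs1 (0.39 ± 0.08). The table's genes were chosen by the submitters, so these counts do not stand for the lists as a whole.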

How the data were processed

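RNA-seq of mouse liver samples gave 2 deposited tables. The first covers 14086 genes in 18 libraries and holds normalized counts as the authors deposited them, a signal that is never negative. The submitters' processing notes name FastQC, STAR, RSEM, DESeq2 and the build mm10, and settings are not given in the sources used here. The second holds a score: the authors deposited z-scores of 1659 genes they had selected, and from the values 16 libraries and the other 18 were scaled apart. How deeply the z-scored libraries were sequenced is unknown. About 60% of the values above 0 in the first table equalled, within 0.001, a whole number of steps of 1 size per library. The column sum divided by that step gave the estimated reads. Unused columns of sample values numbered 0.

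Groups follow the source label. A filter asked for a mean of 10 or more across the 18 libraries and kept 6592 genes, all 10 members among them. Values entered limma 3.58.1 (R 4.3.3) as log2(value + 1): 1 coefficient per group, trended prior, two-sided, Benjamini-Hochberg adjustment over all genes, called under 0.05. Differences on this scale understate the change of low genes. Z-scores of the 16 libraries were tested without a trend. On simulated data, 200 genes with known changes served as a check of the test. Error terms are SE for differences. The members and gene lists were chosen with earlier results of these data known. The rule for named genes took all 10 members in each comparison, up to 6 called list genes per comparison with the largest differences, and the 3 genes with the highest Pearson r per member among genes with a mean of at least 50. Some genes that this rule takes are not reported here. Means of Nfs1, Ireb2, Aco1, Tmprss6, Cpox, Abcb10, Slc11a2, Slc31a1 and Atp7b are outside the rule where they are given for ΔN90 induced samples, and were chosen after their values were seen. The single Kupffer cell and macrophage markers given beside Slc40a1 were likewise chosen after their values were seen. Gene positions are from GENCODE on mm10, and 98.3% of the 14086 symbols matched the reference names. Alternatives were other pseudocounts (0.5 and 5), no filter, a filter at a mean of 50, scaling by upper quartile or quantiles, fits on the compared groups only, array weights, log2 depth as a covariate, voom on estimated reads (scaled by their total), rescaled z-scores and leaving out libraries.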

Additional observations from a re-analysis of the deposited data

Results flagged for a closer look

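In groups of 4 to 10 samples, a library was singled out when its gap to the nearest other library took up more of the group's range than Dixon's 95% critical value. Of 30 gene and group pairs examined 3 were singled out, and chance singles out about 1 in 20 groups. Trf had a normalized count of 10449 in ΔN90 induced replicate 1, above the 8828 to 9070 of the other ΔN90 induced libraries. Alas2 had a z-score of -0.306 in subtype B replicate 3, above the -0.616 to -0.469 of the other subtype B libraries. Ftl1 had a z-score of -0.285 in subtype B replicate 6, above the -0.684 to -0.522 of the other subtype B libraries.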

How the results depend on the processing

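No paired analysis was possible because the labels number no replicates, so a number here only names a library. Of 591 alternative values of the 35 called differences, 516 kept their call and direction, 73 lost the call and 2 turned. Those 2 were Fth1 in ΔN90 induced against not induced samples, at 0.14 with quantile normalization and 0.064 with voom on estimated reads. The median of all genes was 0.02 and 0.55 in these settings. Of 986 alternative values of the 60 differences not called, 28 passed in the same direction and 0 in the other. The number of the 10 genes called moved by over 1.5 times in these settings: 0 in skip 1 against skip 2 induced samples with depth as a covariate; 3, 1 and 2 in skip 2 against ΔN90 induced samples with a mean of at least 50, upper-quartile scaling and array weights; 5 in ΔN90 induced against not induced samples with depth as a covariate and 5 against wild type libraries only. Leaving out 1 library at a time, the number ran from 0 to 4 (skip 1 against skip 2 induced), 1 to 4 (skip 1 against ΔN90 induced), 3 to 4 and 2 to 3 (skip 1 and skip 2 induced against alone), 5 to 7 (ΔN90 induced against not induced) and 3 to 5 (subtype A against B). It fell to 0 without skip 2 induced replicate 1, where that group is 1 library assumed to vary like the others. It fell to 1 without skip 1 induced replicate 1 or 5 in the first comparison, and without skip 1 induced replicate 1 or ΔN90 induced replicate 1, 3 or 4 in the second. It fell to 5 without ΔN90 induced replicate 2 or 4, and to 3 without subtype A replicate 1. The cause was not tested. Over all genes and alternatives, called genes numbered 10 to 400 in skip 1 against skip 2 induced, 0 to 308 in skip 2 against ΔN90 induced and 926 to 3569 in ΔN90 induced against not induced samples. Low reads limit Tfrc and Hamp2 most.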
